A study of Homo sapiens with 6 samples.

Results

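The SMAD proteins, their corepressors SKI and SKIL, and the ID genes ID1, ID2 and ID3 were read in MDA-MB-231 cells that carried a control or a CTCF lentivirus. The 10 genes were ID1, ID2, ID3, SMAD2, SMAD3, SMAD4, SMAD6, SMAD7, SKI and SKIL, and every probe set whose annotated gene symbol was exactly one of these names was taken. This gave 41 probe sets of 49293 on the array, a probe set being several short probes against the same transcript or transcripts. MDA-MB-231 is a metastatic human breast cancer line without estrogen and progesterone receptors. The study compared cells stably expressing a negative control vector (NC, 3 arrays) with cells stably expressing CTCF from a lentivector (CTCF-OE, 3 arrays), all grown in DMEM with fetal bovine serum, to ask which transcripts change with CTCF, the zinc finger protein of insulators and loop anchors. By the methods of the study the vector holds the full-length coding sequence of CTCF. The methods of the study speak in general of independent experiments, but neither they nor the labels say of these arrays whether replicates came from separate infections or cultures, so a p-value here is set against array-to-array spread that may be technical only.

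SMAD proteins carry the signal of the TGF-β family from the cell surface to the nucleus. A ligand brings type I and type II receptors together, the type I receptor phosphorylates receptor SMADs (SMAD2 and SMAD3 for TGF-β and activin), and these join SMAD4 and bind DNA with partner factors. SMAD6 and SMAD7 are induced by the pathway and block it at the receptor, SKI and SKIL hold SMAD complexes in a repressed state, and the ID genes are classical targets of the BMP branch whose products keep E proteins off DNA. In breast cancer cells the pathway is best known for its part in invasion and metastasis.

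The promoters of SMAD7 and SKIL, which had the lowest log2 fold changes among the members at their brightest probe sets, and that of SMAD6, the inhibitory partner of SMAD7, are shown because SMAD7, SMAD6 and SKIL are feedback targets of the pathway. Each run covers 250 bases before and 50 bases after the RefSeq gene start (build GRCh38.p14), 5′ to 3′ on the strand of the gene. Capitals mark CAGAC, the core of the CAGA box bound by SMAD3 and SMAD4, GTCTAGAC, the palindromic SMAD element, and GGCGCC, a GC-rich element of the BMP SMADs, each searched on both strands. The windows are chr18:48950916-48951215 on the minus strand for SMAD7, chr15:66701986-66702285 on the plus strand for SMAD6 and chr3:170357465-170357764 on the plus strand for SKIL.
SMAD7: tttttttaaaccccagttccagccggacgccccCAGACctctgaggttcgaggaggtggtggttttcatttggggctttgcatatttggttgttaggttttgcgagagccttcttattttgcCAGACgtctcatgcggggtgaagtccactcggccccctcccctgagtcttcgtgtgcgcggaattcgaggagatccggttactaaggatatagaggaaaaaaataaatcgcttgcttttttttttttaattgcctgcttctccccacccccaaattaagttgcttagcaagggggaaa
SMAD6: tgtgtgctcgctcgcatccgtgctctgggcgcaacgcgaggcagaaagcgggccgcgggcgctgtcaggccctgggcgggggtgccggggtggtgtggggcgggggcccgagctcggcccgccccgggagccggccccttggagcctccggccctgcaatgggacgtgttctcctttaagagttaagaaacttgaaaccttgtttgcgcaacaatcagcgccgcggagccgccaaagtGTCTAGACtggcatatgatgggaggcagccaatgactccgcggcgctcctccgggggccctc
SKIL: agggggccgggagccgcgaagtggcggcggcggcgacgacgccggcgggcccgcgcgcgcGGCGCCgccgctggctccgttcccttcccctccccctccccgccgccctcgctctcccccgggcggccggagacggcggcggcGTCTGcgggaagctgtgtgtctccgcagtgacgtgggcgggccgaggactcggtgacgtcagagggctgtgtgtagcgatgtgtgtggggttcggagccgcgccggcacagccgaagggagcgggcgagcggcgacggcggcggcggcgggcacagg
SMAD7 held CAGAC from bases -217 and -128 relative to the start. SMAD6 held the palindrome from base -12. SKIL held GGCGCC from base -190 and CAGAC on the opposite strand from base -107. Of the 9 members with a RefSeq window at the annotated start, 4 held CAGAC (ID3, SMAD3, SMAD7 and SKIL), 4 held GGCGCC (SMAD2, SMAD3, SMAD4 and SKIL) and 1 held GTCTAGAC, and the windows of ID1 and ID2 held none of these letters. Among all 35116 promoter windows of this length CAGAC was in 45.3%, GGCGCC in 19.2% and GTCTAGAC in 0.202%. These windows include alternative starts of genes, unlike the member counts. A match of letters is a description of the sequence and not a measured site.

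The deposited values were intensities on a linear scale with array medians between 83.4 and 84.5. Fold changes are on the log2(intensity + 1) scale, CTCF-OE against NC, and were tested with limma with Benjamini-Hochberg adjustment over all 49293 probe sets. At its probe set CTCF itself read 463, 442 and 489 in NC and 399, 388 and 399 in CTCF-OE. Every CTCF-OE array was below every NC array. The log2 fold change was -0.23 (adjusted p = 0.0639), so this probe set read lower in the arrays labelled CTCF-OE, without passing the test. By western blot, however, the study reports CTCF protein to be overexpressed in its MDA-MB-231 line with the CTCF vector. It also measured CTCF mRNA, by qRT-PCR, in xenograft tumors grown from these cells, and its text gives no values for this. Which part of the CTCF transcript the probe set reads is not given in the sources used here. Why its reading differs from the blot was not tested. Every direction here is that of the labels. The summed intensity of 6 MDA-MB-231 markers was 31004 to 31692 in the NC arrays and 31001 to 31279 in the CTCF-OE arrays, with vimentin (VIM) at a mean of 14018 and 13919 and SPARC dim, at 48.4 and 45.7. The sum of 8 markers of luminal cells, such as the MCF-7 line also grown in the study, was 5322 to 5441 in NC and 5117 to 5174 in CTCF-OE. In that list XBP1 alone passed the test (1453 to 1214, log2 fold change -0.26, adjusted p = 0.0288). Its fall was larger than that of the mean of the sums. GATA3 (346 and 334) and ERBB3 (41.8 and 36.4) were also lower without overlap. So was AXL of the MDA-MB-231 list (4613 and 4418), and 12.8% of all probe sets were lower in this way. TFF1 (34.0 and 36.1) and PGR (8.31 and 8.72) had higher means in CTCF-OE, with overlap. The keratin KRT19 was bright in both groups, at 3418 and 3450. The estrogen receptor ESR1 read a mean of 55.8 and 58.8, and E-cadherin CDH1 13.8 and 14.9. Control probe sets also differed with the groups. All 6 for ribosomal RNA had a log2 fold change below 0 (-0.38 to -0.03), 5 of them without overlap of the groups, and the 18 hybridization spikes lay between -0.09 and -0.01, with 11 lower without overlap. No member differed by more than the widest of these controls, a 28S ribosomal RNA probe set at -0.38. SKIL (-0.25) differed by more than the next widest (-0.22), and SMAD7 (-0.18), among others, by more than any spike. The part of whatever moved the controls in the members' values was not tested.

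No member passed the test. Of the 41 probe sets, 0 reached an adjusted p under 0.05 in limma, a threshold that 1.27% of all probe sets passed as lower and 0.803% as higher. With a fold change above 1.3 added, as the methods of the study ask, again 0 of 41 passed, against 0.637% of all. At an unadjusted p under 0.05, 7 of 41 probe sets (17.1%) stood out, beside 17% of all probe sets, so the share among members was at the background. The methods' t-test on the same values called 0 members with the fold threshold, unadjusted (0.751% of all probe sets) or after Benjamini-Hochberg adjustment (0.302% of all). Without the fold threshold it called 4 members at an unadjusted p under 0.05 (9.76%), a lower share than the 16.1% of all probe sets. The groups did not overlap in 7 probe sets that were lower (17.1%, beside 12.8% of all) and 6 that were higher (14.6%, beside 11.6% of all). The log2 fold change was below 0 in 17 probe sets and above 0 in 24, with a median of 0.02 beside 0.00 over all probe sets, and its median size was 0.05 beside 0.06. The 95% interval lay wholly inside a 1.3-fold change in either direction for 40 of 41 probe sets (97.6%, beside 92.7% of all), the exception being 1 probe set of SKIL. Of the 41 probe sets, 29 were above the median of the arrays.

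**Figure D1:**
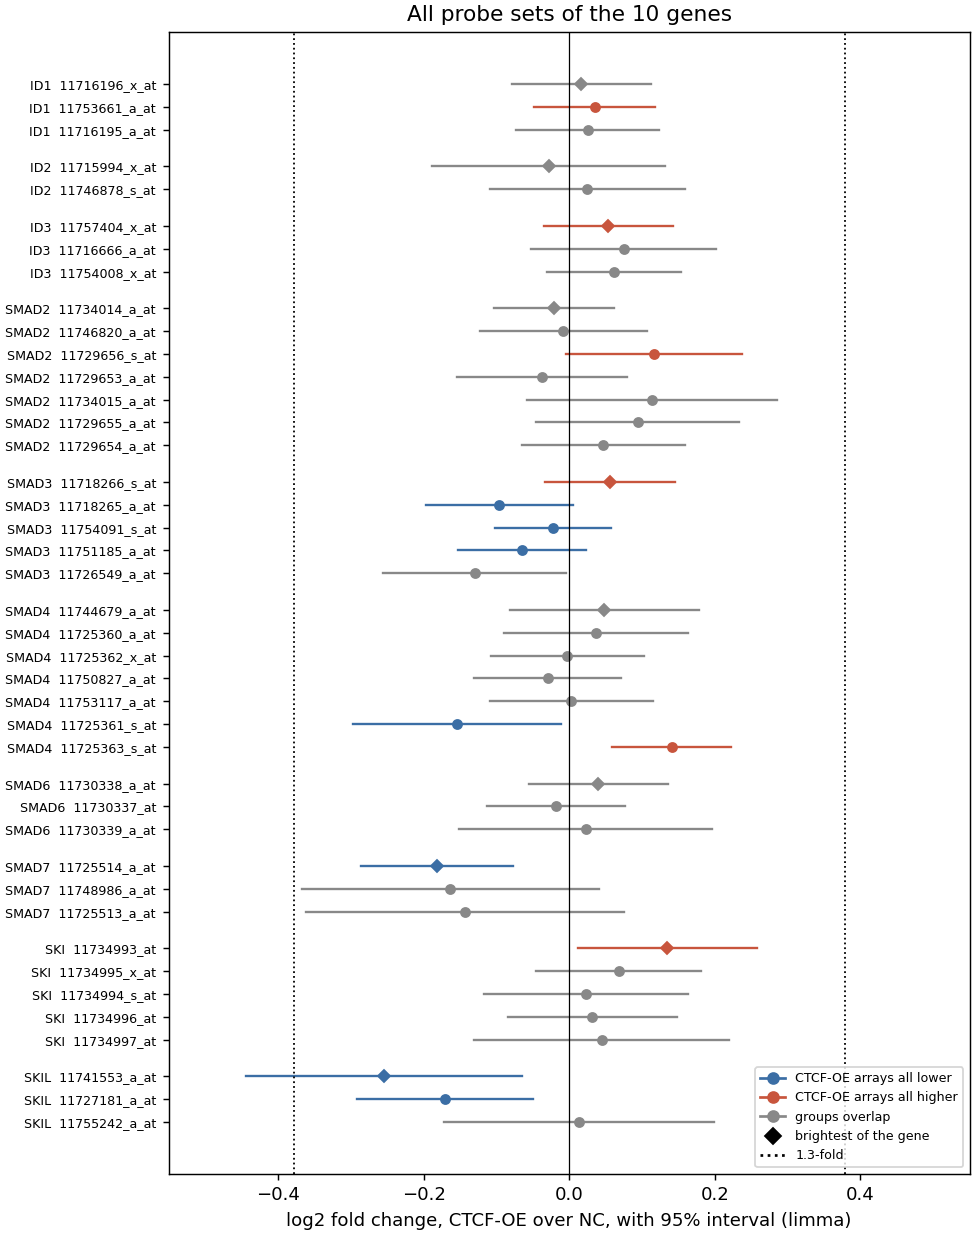
Log2 fold change (CTCF-OE against NC, x axis) of the 41 probe sets of the 10 genes, with the 95% interval from limma as bars, dotted lines at a 1.3-fold change, and diamonds for the brightest probe set of each gene. Blue marks the 7 probe sets with every CTCF-OE array lower, red the 6 with every CTCF-OE array higher and grey those with overlap, and only the interval of the brightest SKIL probe set crosses a dotted line.

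Among the inhibitory SMADs, SMAD7 had the smallest adjusted p of all 41 probe sets. SMAD7 binds activated type I receptors and recruits ubiquitin ligases to them. At its brightest probe set (11725514_a_at) the gene (chr18:48919853-48950965) read 221, 240 and 234 in NC and 207, 202 and 203 in CTCF-OE. Every CTCF-OE array was below every NC array, and the mean was 11.9% lower, 232 ± 10.2 against 204 ± 2.59 (SD, n = 3 each). The log2 fold change was -0.18 (SE 0.044, 95% interval -0.29 to -0.08), with an adjusted p of 0.0998 in limma, and an exact two-sided permutation test gave p = 0.1, the smallest that 3 arrays against 3 allow. Both dimmer SMAD7 probe sets were also below 0. The first of them (11748986_a_at) read 71.2, 78.3 and 68.9 in NC and 70.5, 67.5 and 57.2 in CTCF-OE, and the other (11725513_a_at) read 54.9, 60.7 and 70.5 in NC and 58.5, 52.4 and 56.6 in CTCF-OE. Their groups overlapped, and their log2 fold changes of -0.16 and -0.14 had adjusted p-values of 0.398 and 0.489. The call for the brightest probe set depended on the settings. It passed with 16 added before the logarithm (adjusted p = 0.0461), a setting with 4.53% of all probe sets past the threshold, and with a variance trend over intensity (adjusted p = 0.0279), where 7.02% of all passed, and over all alternatives the adjusted p ran from 0.0279 to 0.268.

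SMAD6, which acts mostly on the BMP branch, stayed near 0 at all 3 of its probe sets. The brightest read 77.9, 74.8 and 80.2 in NC and 80.8, 78.9 and 79.7 in CTCF-OE, with overlap of the groups. Its log2 fold change was 0.04 (95% interval -0.06 to 0.14, adjusted p = 0.668), and the other probe sets were at -0.02 and 0.02. All 3 were below the median of the arrays. The intervals of SMAD6 and SMAD7 at their brightest probe sets do not overlap, but the difference between these genes was not tested.

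**Figure D2:**
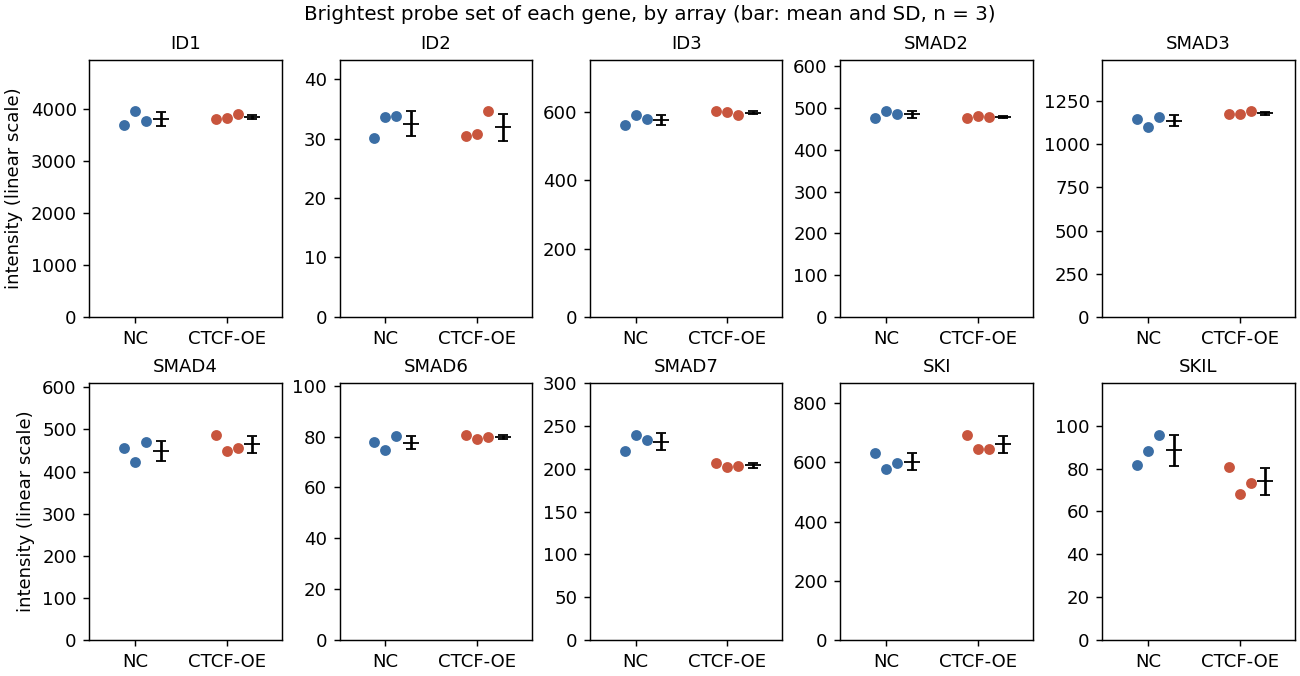
Intensity (y axis, linear and from 0) of the brightest probe set of each of the 10 genes in the 3 NC and 3 CTCF-OE arrays, with points for arrays and lines for the mean ± SD. The groups separate for SMAD7 and SKIL (CTCF-OE lower) and for ID3, SMAD3 and SKI (CTCF-OE higher), and overlap for ID1, ID2, SMAD2, SMAD4 and SMAD6.

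The corepressors SKI and SKIL had log2 fold changes of opposite sign, neither past the test. SKIL (also called SnoN, chr3:170357715-170396849) is degraded when TGF-β signals and is then made anew as a target of the same SMADs. Its brightest probe set (11741553_a_at) read 81.7, 88 and 95.9 in NC and 80.7, 68.1 and 73.4 in CTCF-OE. The groups did not overlap, but the highest CTCF-OE value (80.7) was close to the lowest NC value (81.7). The mean was 88.6 ± 7.12 in NC and 74.1 ± 6.32 in CTCF-OE, and the log2 fold change of -0.25 was the largest in size among the members (SE 0.080, 95% interval -0.44 to -0.07, adjusted p = 0.176). A dimmer probe set (11727181_a_at) read 47.8, 45.1 and 47.6 in NC and 44.2, 40.3 and 40.1 in CTCF-OE. This was again lower without overlap, with a log2 fold change of -0.17 and an adjusted p of 0.160. The third and dimmest (11755242_a_at) read 29.8, 27.5 and 30.2 against 28.4, 27.2 and 33.2, with overlap and a log2 fold change of 0.01.

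For SKI (chr1:2228319-2310213), the founding member of this corepressor family, all 5 probe sets were above 0, between 0.02 and 0.14 on the log2 scale. The brightest (11734993_at) read 632, 576 and 598 in NC and 694, 646 and 644 in CTCF-OE. Every CTCF-OE array was above every NC array, with a log2 fold change of 0.14 (SE 0.052, 95% interval 0.01 to 0.26, adjusted p = 0.254). The next probe set (11734995_x_at) read 572, 568 and 521 against 570, 590 and 579, with overlap and a log2 fold change of 0.07. The other 3 lay between 0.02 and 0.04. Over the alternatives the adjusted p of the brightest probe set ran from 0.0706 to 0.503 for SKI and from 0.0790 to 0.380 for SKIL.

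The genes whose levels were most like those of SKIL over the 6 arrays were IWS1, ZNF644 and SHROOM3. Their Pearson correlations on the log2 scale with the brightest SKIL probe set were 0.994, 0.992 and 0.988, and their log2 fold changes were -0.12, -0.10 and -0.07. With 6 arrays in 2 groups many genes reach such values, and 266 genes had a correlation above 0.9.

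Of the receptor SMADs, SMAD2 read much the same in both groups at its brightest probe set (11734014_a_at). The NC arrays had 476, 492 and 487 and the CTCF-OE arrays 476, 480 and 478, with overlap. The log2 fold change was -0.02 (95% interval -0.10 to 0.06, adjusted p = 0.815). Its 7 probe sets ranged from -0.04 to 0.12, with 3 below 0 and 4 above. One of them (11729656_s_at) was higher without overlap, at 306, 283 and 290 in NC and 335, 307 and 311 in CTCF-OE, with an adjusted p of 0.309. The probe sets of SMAD2 with the highest log2 fold changes were thus not the brightest of the gene, and the sign of the gene turned with the choice of probe set.

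SMAD3 (chr15:67065602-67195169), the receptor SMAD that binds DNA directly, had probe sets on both sides of 0. Its brightest (11718266_s_at) read 1146, 1101 and 1160 in NC and 1176, 1175 and 1190 in CTCF-OE. These were all higher in CTCF-OE, with a log2 fold change of 0.06 (SE 0.038, 95% interval -0.03 to 0.14, adjusted p = 0.508). The other 4 probe sets were all below 0, and 3 of them had every CTCF-OE array lower. The next brightest (11718265_a_at) read 856, 823 and 807 in NC and 749, 786 and 791 in CTCF-OE (log2 fold change -0.10, adjusted p = 0.318). A probe set with very little spread in NC (11754091_s_at) read 405, 406 and 406 against 400, 395 and 404 (log2 fold change -0.02). In the remaining pair the values were 208, 209 and 202 against 194, 196 and 201 (11751185_a_at, log2 fold change -0.06) and 161, 178 and 169 against 151, 150 and 163 (11726549_a_at, log2 fold change -0.13, adjusted p = 0.282). The brightest probe set stood 0.13 above the others on the log2 scale, and this difference did not pass the limma test of probe sets within a gene (adjusted p = 0.153).

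SMAD4 (chr18:51030213-51085042), the common partner of the receptor SMADs, also had probe sets with log2 fold changes of opposite sign. The brightest (11744679_a_at) read 455, 423 and 470 in NC and 488, 450 and 456 in CTCF-OE, with overlap and a log2 fold change of 0.05 (95% interval -0.08 to 0.18, adjusted p = 0.710). One probe set was lower (11725361_s_at), at 194, 197 and 224 in NC and 181, 185 and 185 in CTCF-OE, without overlap. Its log2 fold change was -0.15 (SE 0.060, 95% interval -0.30 to -0.01, adjusted p = 0.263). Another was higher (11725363_s_at), at 111, 112 and 111 in NC and 122, 125 and 122 in CTCF-OE. Its arrays were the tightest of the gene, and its log2 fold change was 0.14 (SE 0.034, 95% interval 0.06 to 0.22, adjusted p = 0.101). By the methods' t-test with Benjamini-Hochberg adjustment, and without the fold threshold, this was the only member past 0.05 (adjusted p = 0.0434), beside 1.21% of all probe sets. The other 4 SMAD4 probe sets lay between -0.03 and 0.04. Against the other probe sets of SMAD4, the lower one differed by -0.19 and the higher one by 0.16 on the log2 scale, with adjusted p-values of 0.0782 and 0.178 in the limma test of probe sets within a gene. Across all 10 genes 0 of 41 probe sets passed that test, beside 1.06% of the 38590 probe sets it covered, and 5 of 41 had an unadjusted p under 0.05, beside 10.2% of all. Both of these SMAD4 probe sets carry the suffix (_s_at) that Affymetrix gives to oligonucleotides shared among transcripts. So do others, such as the brightest of SMAD3 (11718266_s_at) and the SMAD2 probe set that was higher without overlap (11729656_s_at). Their sequences were not used here, so which transcripts they read was not tested.

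**Figure D3:**
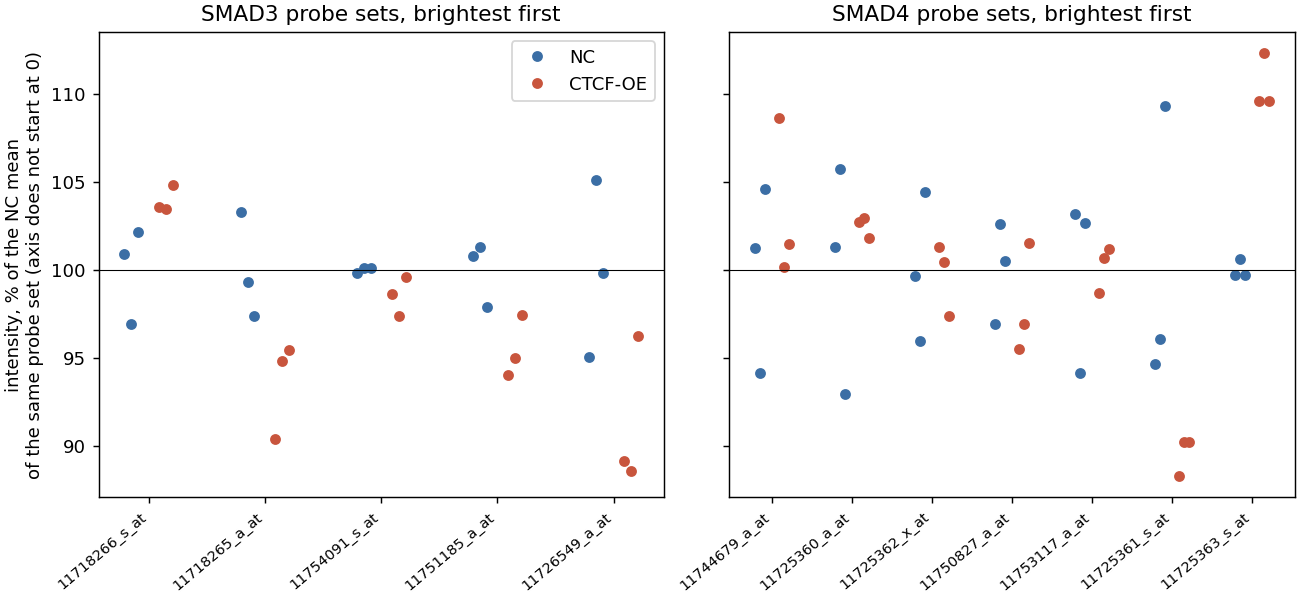
Intensity of each SMAD3 and SMAD4 probe set in each array as a percent of its own NC mean (y axis, not from 0), with points for the 3 NC and 3 CTCF-OE arrays. The brightest SMAD3 probe set was higher in every CTCF-OE array while 3 others were lower in every one, and SMAD4 had 1 probe set on each side without overlap.

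The ID genes, the targets of the set, differed by at most 0.07 on the log2 scale at any probe set. ID1, an inhibitor of E proteins induced by BMP signals, read far above the array medians at each of its 3 probe sets. At the brightest (11716196_x_at) the NC arrays read 3694, 3952 and 3760 and the CTCF-OE arrays 3816, 3822 and 3897. The CTCF-OE values lay inside the NC range, with a log2 fold change of 0.02 (SE 0.041, 95% interval -0.08 to 0.11, adjusted p = 0.876). The second probe set (11753661_a_at) read 2511, 2596 and 2558 against 2611, 2597 and 2644, which left the groups apart by the gap between 2596 and 2597, with a log2 fold change of 0.03 and an adjusted p of 0.669. The third (11716195_a_at) read 1441, 1533 and 1541 against 1525, 1552 and 1516, with overlap and a log2 fold change of 0.03.

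ID3 was slightly higher at all 3 probe sets, by 0.05, 0.07 and 0.06 on the log2 scale. The brightest (11757404_x_at) read 561, 591 and 579 in NC and 602, 601 and 593 in CTCF-OE. The groups did not overlap, but the 95% interval ran from -0.04 to 0.14 and the adjusted p was 0.526. In both other ID3 probe sets the groups overlapped. For ID2 the 2 probe sets were dim, well below the array medians. They read 30.2, 33.6 and 33.9 against 30.4, 30.8 and 34.6 (11715994_x_at) and 29.8, 30.6 and 34 against 32.6, 31.1 and 32.3 (11746878_s_at). The log2 fold changes were -0.03 (95% interval -0.19 to 0.13) and 0.03, with overlap in both.

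Around the members, 81 of 85 listed genes of the TGF-β and BMP pathway were measured, and the other 4 were not analysed here. Each was read at its brightest probe set and tested over 18132 genes. At an adjusted p under 0.05, 6 of the 81 fell and 2 rose, where 1.4% of all genes were lower and 0.734% higher. Counting a gene at any of its probe sets used the other fit, adjusted over all 49293 probe sets. It gave a more even split, 7 lower (beside 2.18% of all genes) and 5 higher (beside 1.52%). This added FST lower and FN1, SMAD5 and ZEB1 higher. The median log2 fold change of the list was 0.00, as over all genes, and its median size was 0.07 beside 0.06. By role, 2 of 18 ligands were lower, 1 of 11 receptors was higher, 1 of 22 regulators was lower and 1 higher, and 3 of 15 targets were lower. None of the 3 other SMADs, the 8 nuclear partners, or the 4 genes formed by the E proteins and ID4 passed in limma at the brightest probe set. At another probe set SMAD5, a receptor SMAD of the BMP branch, passed with a log2 fold change of 0.30 (adjusted p = 0.0282). ZEB1, a repressor that binds SMAD proteins, passed at another of its probe sets with 0.32 (adjusted p = 0.0363). At their brightest probe sets SMAD5 was at 0.14, ZEB1 at -0.02 and FN1 at 0.07. The medians of their other probe sets were 0.14, 0.09 and 0.02. A list chosen with results of these arrays known gives no independent evidence of a direction.

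Among ligands, GDF15, a distant family member that signals through another receptor, fell by 0.63 on the log2 scale, from 313 ± 7.06 to 202 ± 10.4 (SD, n = 3 each, limma adjusted p = 0.00278). Other GDF15 probe sets passed at -1.06 and -0.85, and the median of all its other probe sets was -0.44. INHBA, which encodes the subunit of activin A, read 114.1, 117.8 and 131.9 in NC and 87.6, 88.5 and 93.5 in CTCF-OE (log2 fold change -0.43, adjusted p = 0.0237). TGFBR1, the type I receptor that phosphorylates SMAD2 and SMAD3, read 1353.4, 1323.7 and 1394.7 in NC and 1643.4, 1624.1 and 1649.1 in CTCF-OE. This was a rise of 0.27 on the log2 scale (adjusted p = 0.0167), while its other probe sets had a median of 0.05. BAMBI, a pseudoreceptor that blocks receptor complexes and is itself a target of the pathway, read 377.6, 370.7 and 404.4 in NC and 262.6, 287.7 and 280.6 in CTCF-OE at its only probe set (log2 fold change -0.47, adjusted p = 0.00987). LTBP1, which holds latent TGF-β in the matrix, rose from 144 ± 3.35 to 182 ± 3.04 (log2 fold change 0.33, adjusted p = 0.00897). In all 5 of these genes the arrays of the groups did not overlap. Of all probe sets, 12.8% were lower and 11.6% higher without overlap. These genes were named for passing the test on the same arrays, so the separation is no further evidence.

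Among targets, KLF10, an early TGF-β response gene, had the largest change of the list at the brightest probe sets. It read 1345.3, 1254.4 and 1364.4 in NC and 748.4, 763.7 and 770 in CTCF-OE, a log2 fold change of -0.79 (adjusted p = 0.00114), with -0.77 at its other probe set. From these same arrays the study already lists KLF10, GDF15 and INHBA as lower, as targets of the transcription factor NF-κB. SNAI2, a transcription factor of epithelial-mesenchymal transition, read 893.5, 903.5 and 923 against 782.3, 779.3 and 787.4 (log2 fold change -0.21, adjusted p = 0.0279). IL11, a cytokine that TGF-β induces in breast cancer cells that spread to bone, read 118.3, 126.5 and 120.9 against 101, 102.2 and 101.6 (log2 fold change -0.26, adjusted p = 0.0243). The members themselves, at their brightest probe sets, lay between -0.25 and 0.14. The count of 8 pathway genes moved with the arrays included. It was 7 without NC replicate 3, 4 without NC replicate 1, 4 without NC replicate 2, 2 without CTCF-OE replicate 1, 3 without CTCF-OE replicate 2 and 2 without CTCF-OE replicate 3, and KLF10 and GDF15 passed each time. The count over all genes moved with it, from 386 with all arrays to between 67 and 170 with 1 array left out.

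**Figure D4:**
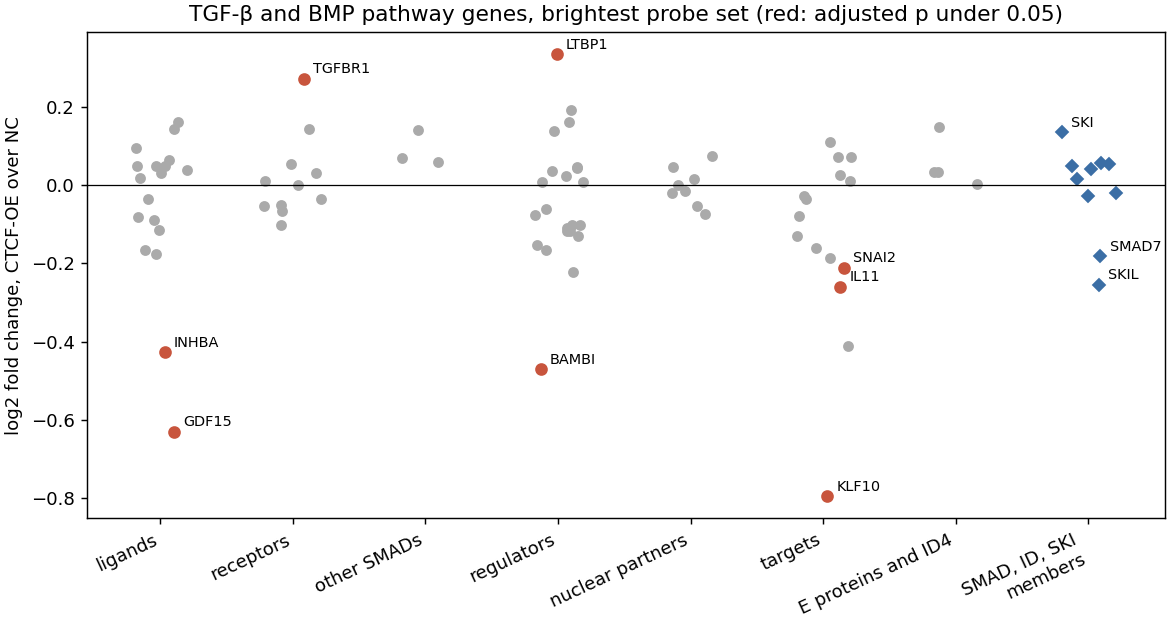
Log2 fold change (CTCF-OE against NC, y axis) of the 81 measured pathway genes by role and of the 10 members, each at its brightest probe set. Red marks the 8 pathway genes with an adjusted p under 0.05 (GDF15, INHBA, BAMBI, KLF10, SNAI2 and IL11 lower, TGFBR1 and LTBP1 higher). The members are blue diamonds whatever their adjusted p. They lie between -0.25 and 0.14, and none passed the test.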

How the data were processed

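The authors extracted total RNA from 3 NC and 3 CTCF-OE samples of MDA-MB-231 cells and measured it as biotinylated cRNA on Affymetrix PrimeView arrays. The values they deposited are intensities of probe sets on a linear scale with nearly equal medians, so the authors had already brought the arrays to a common level. The software, background correction and normalization are not given in the sources used here. Detection calls were not used, so precision was set by the number of arrays and their spread (median standard error 0.05 on the log2 scale for the members).

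After 102 control probe sets were left out, log2(intensity + 1) of 49293 probe sets was fitted with limma 3.58.1 in R 4.3.3 (group as the only coefficient, moderated variances, Benjamini-Hochberg adjustment over all probe sets). Probe sets with 1 gene symbol (44988) gave the members and 18132 genes, each gene read at its probe set with the highest mean, and 1832 probe sets with several symbols and 2473 with none listed named no gene. Probe sets were compared within a gene with diffSplice of limma. The procedure was tested on simulated data. Alternatives changed the scaling, the value added, the filter on dim probe sets, the variance trend, the replicate block, the arrays included, the probe set per gene and the test. Deviations of arrays with the same replicate number correlated at 0.012, 0.0054 and 0.0094, and the numbers were not used as pairs. The members, the pathway list and the marker lists were chosen with earlier results of these data known. Genes named are the 10 members, pathway genes with an adjusted p under 0.05, the 3 genes most like SKIL over the arrays, and CTCF, and the markers named beside it and FN1, FST, SMAD5 and ZEB1 were chosen after their values were seen. Gene names came from the platform annotation, and promoters from RefSeq (GRCh38.p14). Plots were made in Python 3.11.15 with matplotlib 3.10.9.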

Additional observations from a re-analysis of the deposited data

How the results depend on the processing

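The count of member probe sets past both thresholds was 0 in every alternative run. At an adjusted p under 0.05 alone it was 0, and 1 (SMAD7) with 16 added before the logarithm and with an intensity trend, where all calls went from 1024 to 2235 and 3462. For single members, 131 values kept their direction and, where an adjusted p was set beside them, their side of the threshold. Another 2 passed it (SMAD7) and 7 turned sign, none of which was past the threshold. Values from the median of all probe sets or the probe set of largest change were compared by sign only. Leaving out 1 array moved the log2 fold change of ID1 between -0.0036 and 0.045 and that of ID2 between -0.087 and 0.0060. With the median of all probe sets SMAD2 was at 0.047 and SMAD3 at -0.065, and with the probe set of largest change SMAD2 was at 0.12, SMAD3 at -0.13 and SMAD4 at -0.15. Of the pathway genes, 8 passed (all genes 386), and 13 (830) passed with 16 added, 18 (1449) with an intensity trend, 12 at any probe set, and 2 (54), GDF15 and KLF10, with the replicate number as a block, although the numbers do not pair the samples. Leaving out 1 array gave 2 to 7. The cause was not tested. The block changed no member's call. With 3 arrays a group and deposited values whose background correction is unknown, precision differed between probe sets, and the largest standard errors among the members were 0.092 and 0.086, at both dim SMAD7 probe sets.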
